A study of Mus musculus with 3 samples.

Results

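In the injured tendon, 108 cells carried the transcripts of monocytes and macrophages together with those of dividing cells, out of 9725 cells in the 3 libraries of the study. These cycling monocytes and macrophages were chosen by their own transcript counts in the tendon library. A UMI (unique molecular identifier) stands for 1 captured transcript, and a cell needed 200 or more genes with a UMI, no more than 20% of its UMIs from mitochondrial genes, at least 1 UMI each of *Csf1r* and *Ptprc*, and at least 5 UMIs of *Mki67* and *Top2a* summed. Cells with any UMI of *Pdgfra* or *Cdh5*, genes of stromal and endothelial cells, were left out, as were cells in which *S100a8* and *S100a9*, the main neutrophil transcripts, made up 2% or more of the UMIs. The same rule with no requirement on *Mki67* and *Top2a* found 2253 monocytes and macrophages among the 4978 tendon cells that passed the quality limits, so the cycling cells were 4.79% of them (exact binomial 95% interval 3.95 to 5.76%). A further 420 of the 2253 cells held 1 to 4 UMIs of the 2 genes, and 1725 held 0 and are called the non-cycling cells here.

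The mice received a dorsal burn and a cut through the Achilles tendon, an injury after which bone forms in the tendon, and tissue was taken 3 days later. Single-cell 3′ libraries were made from unsorted cells of the tendon injury site, bone marrow and blood of 10-week-old mice, males of the C57BL/6J strain according to the methods, with 1 library for each tissue and no uninjured library used here. The marrow was flushed from femurs, the blood was spun on a Ficoll gradient for its mononuclear cells, and only the tendon was digested with enzymes, so tissue, preparation and library cannot be told apart. How many mice went into each library was not given in the sources used here. Since no tissue had a second library, no difference was tested: cells are not replicates, and every interval covers counting error only. The tendon library held 90621052 UMIs in 5629 barcodes (median 11082 per cell), the marrow library 49580625 in 1855 (median 22836) and the blood library 22542581 in 2241 (median 8316). The tendon shared 1 barcode with the marrow and 6 with the blood, and 0 of the 108 cycling cells carried a shared barcode.

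Macrophages in an injured tissue come from blood monocytes that enter it and mature there, and from macrophages already present, and both can divide in place. CSF1R, the receptor of the growth factors CSF1 and IL-34, keeps them alive and drives their division. D-type cyclins with CDK4 or CDK6 open the cycle by relieving the E2F transcription factors of their inhibitor RB. E2F factors then switch on the genes of DNA replication. Later the MuvB complex, with B-MYB and FOXM1, switches on the genes of G2 and mitosis through a short promoter element called the CHR (cell cycle genes homology region), usually near a CCAAT box bound by NF-Y.

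The genes of the rule describe the cells and are no finding. The summed *Mki67* and *Top2a* count ran from 5 to 149 UMIs per cell with a median of 15. *Mki67* (chromosome 7, 135689784 to 135716361, GRCm38) coats mitotic chromosomes and ran from 1 to 81 UMIs (median 9). *Top2a* (chromosome 11, 98992943 to 99024189), which untangles replicated DNA, ran from 0 to 68 (median 7) and was at 0 in 12 cells. Most cells thus carried both transcripts. *Csf1r* ran from 1 to 25 UMIs (median 8), with 8 cells at 1, and *Ptprc*, the CD45 antigen of all leukocytes, from 1 to 22 (median 5). At the limit itself, 12 cells held 5 UMIs of *Mki67* and *Top2a* and 23 cells just outside held 4.

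The cycling cells were deeper than the rest, with a median of 24929 UMIs (6595 to 105843) and 4595.5 genes, against 11894 UMIs and 2787 genes in the non-cycling cells. A limit on counts also selects deep cells. For this reason each comparison was made against all 1725 non-cycling cells and again against 108 non-cycling cells paired to the cycling cells by total UMIs (median 24649.5). The pairing was incomplete at the top, since 6 members were deeper than every non-cycling cell (highest 59365 UMIs), and the mean was 27958.5 UMIs in members and 23906.3 in the paired cells. Levels are given as CPM, the UMIs of a gene summed over a group and scaled to the total UMIs of that group, and a gene was called higher or lower where its log2 ratio reached 1 or -1 with an interval off 0, among genes with at least 100 UMIs over both groups. Of 8914 genes, 13.7% were higher and 4.46% lower in the cycling cells. Against the depth-matched cells, 9.68% and 2.72% of 5891 genes were.

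With every cell thinned to 5000 UMIs, and cycling read as at least 2 *Mki67* and *Top2a* UMIs, 108 of 2136 tendon monocytes and macrophages were cycling (5.06%, 4.17 to 6.07%). The thinning left out 117 shallower cells and none of the 108 members. By transcripts of complement C1q, which mature macrophages make and monocytes largely lack, and of *Folr2* and *Cd163*, scavenger and folate receptors of macrophages resident in tissue, the cells were divided into ranges: C1q-low (under 5 C1q UMIs), C1q-high, and among the latter the resident-marked cells (at least 2 *Folr2* and *Cd163* UMIs). Of the resident-marked cells, 31 of 475 were cycling (6.53%, 4.48 to 9.14%). Of the other C1q-high cells, 40 of 793 were (5.04%, 3.63 to 6.81%), and of the C1q-low cells 37 of 868 (4.26%, 3.02 to 5.83%). The intervals overlapped and the difference was not tested. With at least 1 *Mki67* and *Top2a* UMI of 5000 as the limit, the shares were 16.4%, 13.9% and 10.6% in the same order, and with at least 1 of 2000 UMIs 12.05%, 8.43% and 5.58%, so the order was the same and its size moved with the setting. The 108 members themselves fell as 35 resident-marked, 38 C1q-high and 35 C1q-low cells, so cycling cells were found in each range. The C1q-low range is set by C1q alone and is not named a monocyte here. The ranges are limits on a count and not cell types, and 75 cells, 3 of them members, lay next to the C1q limit.

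**Figure D1:**
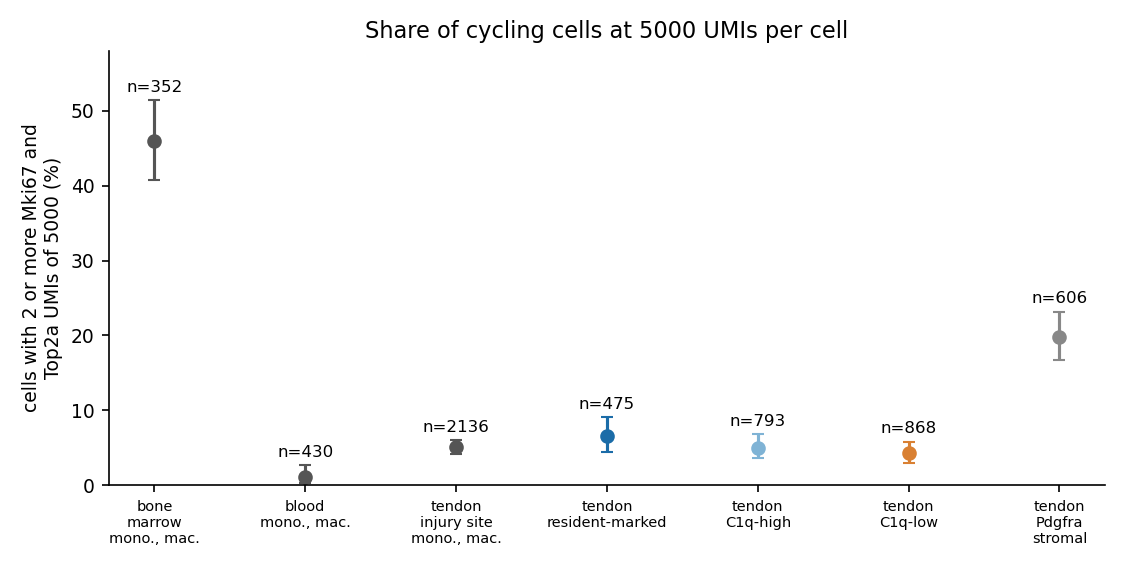
Share of cells with at least 2 *Mki67* and *Top2a* UMIs after thinning to 5000 UMIs (vertical axis, percent) for monocytes and macrophages of each library, for the 3 ranges within the tendon and for tendon stromal cells. Points are shares of the n cells printed and bars exact binomial 95% intervals; the 3 tendon ranges sit between 4.26% and 6.53% with overlapping bars, far under the 46.0% of the marrow.

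The promoters of the 2 large groups of cell cycle genes differ in their letters. RefSeq promoters (GRCm38.p6, 250 bases before to 50 after each start) were searched on both strands, overlaps allowed, for the CHR (TTTGAA), the CCAAT box (CCAAT) and E2F sites (TTTCGCGC, TTTGGCGC or TTCCCGCC). Promoters were matched for 47 of 58 listed G2 and mitosis genes and 37 of 51 S phase genes. CHR and CCAAT box occurred together in 32 of 52 G2 and mitosis promoters (61.5%), in 6.98% of S phase promoters and in 6.95% of all 32851 promoters. An E2F site occurred in 18 of 43 S phase promoters (41.9%), in 5.77% of G2 and mitosis promoters and in 2.96% of all. A match is a description of the letters and not a bound site. The 150 bases before the start are printed 5′ to 3′ on the strand of the gene for 4 genes, to show the 2 arrangements. Capitals mark the CHR and CCAAT box (or their reverse complements) in the first pair and the E2F sites alone in the second, whose CCAAT boxes stay in lower case. A CCAAT box, with or without a CHR, was found in 80.8% of G2 and mitosis promoters, 55.8% of S phase promoters and 37.4% of all promoters. The first pair is the mitotic kinesin *Kif11* (chr19:37376232-37376381, plus strand) and the anaphase activator *Cdc20* (chr4:118437344-118437493, minus strand), and the second the replication helicase subunit *Mcm6* (chr1:128359706-128359855, minus strand) and the replication licensing regulator *Dtl* (chr1:191575545-191575694, minus strand).
Kif11: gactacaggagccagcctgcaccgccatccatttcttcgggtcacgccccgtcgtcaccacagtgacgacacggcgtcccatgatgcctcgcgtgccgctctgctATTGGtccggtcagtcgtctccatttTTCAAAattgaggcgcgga
Cdc20: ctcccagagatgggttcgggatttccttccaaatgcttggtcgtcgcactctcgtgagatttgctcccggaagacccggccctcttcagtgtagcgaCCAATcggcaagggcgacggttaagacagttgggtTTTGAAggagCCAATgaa
Mcm6: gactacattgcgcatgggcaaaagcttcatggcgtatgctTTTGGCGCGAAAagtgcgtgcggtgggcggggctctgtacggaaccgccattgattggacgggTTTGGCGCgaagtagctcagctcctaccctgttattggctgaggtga
Dtl: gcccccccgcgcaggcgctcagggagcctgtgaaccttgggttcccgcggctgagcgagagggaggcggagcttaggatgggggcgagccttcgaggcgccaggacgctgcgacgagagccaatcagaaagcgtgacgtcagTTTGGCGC

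The cell cycle genes were higher as a body, which follows from how the cells were chosen and is given as a description. Of 51 S phase and replication genes, 45 had enough UMIs to compare, and 45 were higher, with a median log2 ratio of 3.38. Of 58 G2 and mitosis genes, 53 were compared and 51 were higher (median 4.68). Of 16 spindle checkpoint and kinetochore genes, 13 were compared and 13 higher (median 5.19). The minimum of 100 UMIs admits many of these genes only through the cycling cells, where they are high, so the counts support nothing by themselves. The median over all 8914 genes was 0.18.

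Among the promoters printed, *Kif11*, whose motor pushes the spindle poles apart, stood at 103 CPM in cycling and 0.51 CPM in non-cycling cells, a log2 ratio of 7.65 (6.79 to 8.67). *Cdc20* stood at 75.8 and 0.835 CPM (6.51, 5.81 to 7.29). *Mcm6* stood at 159 and 14.4 CPM (3.46). *Dtl* had a log2 ratio of 5.25. The mitotic pair was thus near absent from non-cycling cells, while *Mcm6* was present in them at a low level. Non-cycling cells were chosen by the lack of any *Mki67* or *Top2a* UMI. Low levels of mitotic genes in them follow in part from that choice. The contrast rests on single genes, since *Dtl* had a higher ratio than *Mcm6*. *Bub1b*, the spindle checkpoint kinase given as a marker of the cycling cells, stood at 74.5 and 5.15 CPM (3.86, 3.52 to 4.20). It was thus higher in non-cycling cells than the mitotic pair, and 68 of the 108 cycling cells held a UMI of it. *Cdk1*, the mitotic kinase itself, stood at 180 and 3.39 CPM (5.73).

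The most abundant of these genes were not the most specific. *Hmgb2*, a chromatin protein also made outside the cycle, stood at 1036 CPM against 167 (2.63, 2.56 to 2.70), and *Stmn1*, which takes microtubules apart, at 719 against 29.1 (4.63, 4.50 to 4.76). At the other end, *Pttg1*, the securin that delays the separation of sister chromatids until anaphase, did not separate the groups, at 24.8 and 25.7 CPM (-0.05, -0.42 to 0.30). *Lmnb1*, a lamin of the nuclear envelope, stood at 171 and 127 CPM (0.43), and at a log2 ratio of 1.59 against the depth-matched cells. Outside the cell cycle lists, the genes with the highest ratios were again genes of division, which follows in part from how the cells were chosen. They were *Esco2* (8.05), which locks cohesin onto sister chromatids, the replication-dependent linker histone *Hist1h1b* (411 and 1.62 CPM, 7.98), the mitotic kinase *Pbk* (7.77), *Hist1h3c*, *Pclaf* (listed as *2810417H13Rik*, 333 and 1.90 CPM, 7.45), a partner of the PCNA clamp, *Hist1h2ap* (7.32), *Fbxo5*, *Aspm*, *Hist1h1a*, *Melk*, *Kif15* and *Ska1*. Histone genes sit in clusters of near-identical copies, and how reads were divided among them is uncertain. Genes such as *Hist1h1b* and *Pclaf* pass the minimum of UMIs mainly through the cycling cells.

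The 108 cells were spread over the cycle. At 5000 UMIs a member held a median of 17 S phase gene UMIs (0 to 48) and 38 G2 and mitosis gene UMIs (1 to 101), against 2 and 5 in the non-cycling cells. Ordered by the G2 and mitosis share of the 2 sums and cut at 33.3 and 66.7%, 14 members were S-rich, 38 lay in the middle (35.2%) and 56 were G2 and mitosis-rich (51.9%, 42.0 to 61.6%). The score alone does not set the members apart, since its median was 67.6% in members and 66.7% in the non-cycling cells with their few UMIs of these genes. *Mcm3*, another helicase subunit and part of the S phase sum, stood at 287, 240 and 85.4 CPM from S-rich to mitosis-rich cells, and *Ube2c*, which marks mitotic proteins for destruction and is part of the other sum, at 17.7, 75.4 and 405 CPM, an order that the sums fix. *Ccnd1*, which was not in either sum, stood at 452, 248 and 88.0 CPM in the same order. These are ranges of a score and not measured phases: 22 members lay within 5 points of a limit, and 19 members held fewer G2 and mitosis UMIs than the 95th percentile of the non-cycling cells. From S-rich to mitosis-rich cells, 9 of 14, 12 of 38 and 14 of 56 were resident-marked, and 2 of 14, 9 of 38 and 24 of 56 were C1q-low, differences that were not tested.

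**Figure D2:**
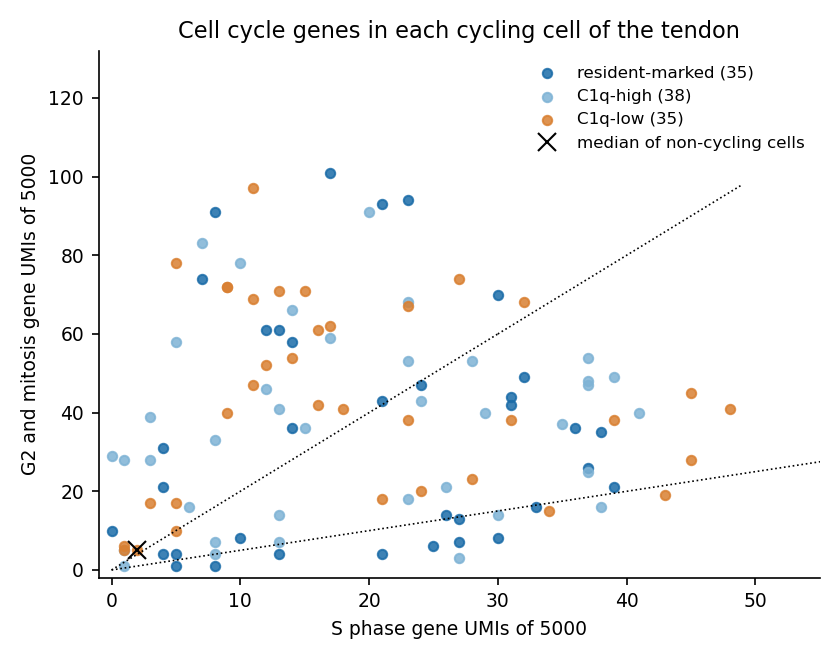
S phase gene UMIs (horizontal) and G2 and mitosis gene UMIs (vertical) of each cycling cell after thinning to 5000 UMIs, coloured by C1q range, with the median of the non-cycling cells as a cross and dotted lines at the 2 limits. The members spread along both axes, from 0 to 48 and from 1 to 101 UMIs, and cells of the 3 ranges overlap.

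The genes that open the cycle were led by cyclin D1. *Ccnd1* (chromosome 7, 144929931 to 144939925) stood at 187 CPM in cycling and 36.5 CPM in non-cycling cells, a log2 ratio of 2.36 (2.20 to 2.52) and of 1.80 (1.53 to 2.08) against the depth-matched cells. The ratio was 2.14 among C1q-high and 2.70 among C1q-low cells, where 8.26% and 19.5% of the genes compared were higher and 3.05% and 10.7% lower. A UMI of it was found in 71 members, and at 5000 UMIs in 40.7% of members (31.4 to 50.6%), 9.49% of non-cycling cells and 16.7% of stromal cells, which make cyclin D1 themselves. *Ccnd3*, another D cyclin, differed little, at 49.7 and 40.6 CPM (0.29, 0.03 to 0.54). The kinase partners of the D cyclins, *Cdk4* (158 and 51.4 CPM, 1.62) and *Cdk6* (90.7 and 38.5 CPM, 1.24), were higher, as was *Foxm1*, the mitotic transcription factor (33.1 and 0.603 CPM, 5.78). Of 17 G1 cyclins and cell cycle transcription factors, 13 were compared, and 10 were higher and 0 lower, beside 13.7% and 4.46% of all genes. The median was 1.32, and 1.38 against matched cells. The same limit holds, that genes such as *Foxm1* pass the minimum through the cycling cells alone.

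Cell cycle brakes went several ways. Of 22 listed, 19 were compared, and 2 were higher and 2 lower (10.5% each, median -0.52). Over all genes 13.7% were higher and 4.46% lower, so the counts alone do not set the brakes apart. With depth matched 3 of 16 were higher and 0 lower (median 0.05), beside 9.68% and 2.72% of all genes. *Cdkn2c*, the CDK4 and CDK6 inhibitor p18, was higher at 43.4 against 5.01 CPM (3.11, 2.74 to 3.50). *Btg1*, an antiproliferative factor, was lower at 317 against 657 CPM (-1.05), as was the stress gene *Gadd45a* at 12.9 against 28.5 CPM (-1.14), but against matched cells the values were -0.55 and -0.72. *Cdkn1a*, which encodes the CDK inhibitor p21, stood at 326 and 610 CPM (-0.91), and at -0.23 with depth matched. The gap in *Cdkn1a* was thus smaller against the paired cells.

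Genes of growth stood higher as well. Of 21 nucleolus and MYC target genes, 20 were compared, 16 were higher and 0 lower (median 1.54). Among C1q-high cells 8 of 19 were higher (median 0.90), and among C1q-low cells 17 of 19 (median 2.14), a difference that was not tested. The sets of members led by other genes, described below, had low C1q counts, and their part in it was not tested. The median was 1.17 against the depth-matched cells, where 13 of 19 were higher. *Npm1* and *Ncl*, the main nucleolar proteins of ribosome assembly, stood at 1674 against 673 CPM (1.31, 1.27 to 1.36) and 1359 against 472 CPM (1.53, 1.47 to 1.58). *Ran*, the nuclear transport GTPase, had a log2 ratio of 1.90 and *Dkc1*, a pseudouridine synthase of ribosomal RNA, of 2.56. Single cells showed the same: the summed *Ncl* and *Npm1* count at 5000 UMIs had a median of 9 in members and 5 in non-cycling cells, with interquartile ranges of 6 to 17.25 and 3 to 7, which overlapped. Of 22 nucleotide synthesis genes all were compared, and 20 were higher (median 2.27). With depth matched, 17 were compared and 13 were higher (median 1.59). Ribonucleotide reductase led the list, with *Rrm2* at 105 against 1.53 CPM (6.10), while *Impdh1*, of guanine nucleotide synthesis, stood at 22.2 and 16.9 CPM (0.39). Genes such as *Rrm2* pass the minimum of UMIs mainly through the cycling cells. The minimum left out none of these genes in the first comparison, but the depth-matched count is in part set by it. Of the 15 glycolysis genes, 0 were higher and 1 lower: *Slc16a3*, the lactate exporter, at 28.2 against 93.7 CPM (-1.74, and -1.04 with depth matched). Beside each list of this paragraph, 13.7% of all genes were higher and 4.46% lower, and 9.68% and 2.72% with depth matched. The 82 cytosolic ribosomal protein genes and the 13 mitochondrial genes each had a median of 0.14 with 0 past the fold.

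**Figure D3:**
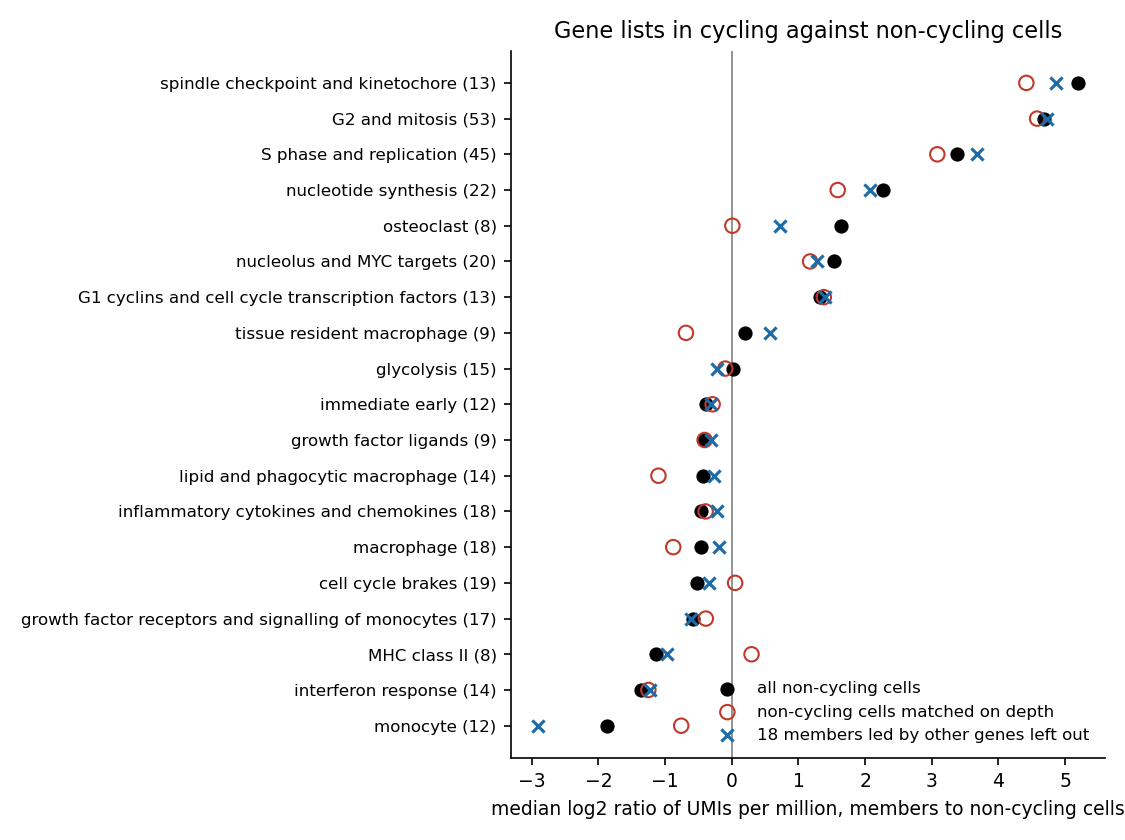
Median log2 ratio of CPM, cycling to non-cycling cells (horizontal), over the compared genes of each list (number in brackets), against all non-cycling cells (filled), depth-matched cells (open circles) and with 18 members led by other genes left out (crosses). The lists of S phase, G2 and mitosis, kinetochore, G1, nucleotide and nucleolus genes stay above 1 in every comparison, the interferon list stays under -1, and the monocyte, MHC class II and osteoclast lists move with the comparison.

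Macrophage genes stood somewhat lower in the cycling cells, most of them by less than the fold. Of 18 macrophage genes, 0 were higher and 2 lower (11.1%), beside 13.7% and 4.46% of all genes. Of the 18, 16 lay below 0, and the median was -0.47. The median was -0.20, with 1 gene lower, when the cells led by other genes, described below, were left out. It was -0.18 with each cell weighted equally. *C1qb* stood at 1927 and 2141 CPM (-0.15), and *Mrc1*, the mannose receptor, at 919 and 895 CPM (0.04, -0.02 to 0.10). At 5000 UMIs, 77.8% of members, 61.2% of non-cycling cells and 3.30% of stromal cells, which do not make C1q, held a *C1qb* UMI. The resident genes *Stab1*, a scavenger receptor (287 and 241 CPM, 0.25), and *Cbr2*, a carbonyl reductase (191 and 166 CPM, 0.20), were at like levels too. The lineage factor *Spi1* was level, at 376 CPM in both groups (0.00, -0.09 to 0.09). *Csf1r*, used by the rule, stood at 305 and 445 CPM. Deep non-cycling cells carried more of these genes than non-cycling cells at large, so against matched cells the macrophage median was -0.88 with 6 of 18 lower, and the resident median -0.69 with 0 of 9 higher and 2 lower. Of all genes, 9.68% were higher and 2.72% lower against matched cells. The resident median was 0.20 against all non-cycling cells, with 1 of 9 higher and 0 lower, so its direction turned with the comparison.

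*Apoe* (chromosome 7, 19696109 to 19699188), which carries lipid out of macrophages, was the most abundant listed macrophage gene in the cycling cells and stood low there. It stood at 2721 CPM in cycling and 9325 CPM in non-cycling cells, a log2 ratio of -1.78 (-1.81 to -1.74). The ratio was -1.68 with depth matched, -1.83 among C1q-high and -1.76 among C1q-low cells. At 5000 UMIs the median cell held 10.5 *Apoe* UMIs (interquartile range 2.75 to 25) if cycling and 24 (8 to 55) if not, so the level per cell was lower with overlap between the groups. The cells with 1 to 4 *Mki67* and *Top2a* UMIs held a median of 29.5. *Gpnmb*, a glycoprotein of lipid-laden macrophages, stood at 44.7 and 156 CPM (-1.80, and -2.92 with depth matched). Of 14 lipid and phagocytic macrophage genes, 1 was higher and 2 lower (median -0.42), beside 13.7% and 4.46% of all genes. Among C1q-low cells 9 of 14 were lower (median -1.39) and among C1q-high cells 2 of 14 (median -0.30). Of all genes compared, 10.7% and 3.05% were lower in these cells, and the difference was not tested. The sets of members led by other genes, described below, had low C1q counts, and their part in this difference was not tested. With depth matched, 8 of the 14 were lower (median -1.10), beside 2.72% of all genes. Among the 8 were *Spp1* (osteopontin, -1.74 against -0.62 over all cells), *Fabp5*, a fatty acid carrier (-1.32), and *Ctsl*, a lysosomal protease (-1.23).

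Interferon response genes were low in both comparisons. Of 15 listed, 14 were compared, 11 were lower and 0 higher (median -1.37), and with depth matched 6 of 10 were lower (-1.25). Of all genes, 4.46% were lower, and 2.72% with depth matched. *Rsad2*, which encodes the antiviral enzyme viperin, stood at 22.9 against 105 CPM (-2.20, -2.57 to -1.85) and at -2.73 with depth matched. *Isg15*, a ubiquitin-like protein, stood at 95.4 against 192 CPM (-1.01, and -1.03 matched). The chemokine *Cxcl10* was an exception at 82.1 and 86.1 CPM (-0.07), as was *Bst2* (-0.35). *Isg15* UMIs were in 44 of the 108 members, 5 of which held 69.1% of them.

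Genes of newly arrived monocytes were low against all non-cycling cells and less so against the depth-matched cells. Of 12 monocyte genes 0 were higher and 11 lower (median -1.88), where 4.46% of all genes were lower. Against matched cells 2 of 11 were lower (-0.76), where 2.72% of all genes were. *Thbs1* (thrombospondin 1, chromosome 2, 118111876 to 118127133) held in both, at 223 against 1309 CPM (-2.55, -2.66 to -2.44) and -1.74 (-1.87 to -1.61) with depth matched. In thinned cells it was found in 38.0% of members, 74.5% of non-cycling cells and 33.7% of stromal cells, which make it too. *Ccr2*, the receptor that brings monocytes into tissue, went from -1.22 (218 and 508 CPM) to 0.20, and *Plac8*, a monocyte gene, from -1.69 to 0.11. The proinflammatory cytokine *Il1b* went from -2.09 (211 and 895 CPM) to -0.55. Outside the cell cycle lists, the genes with the lowest ratios were *Ppbp*, a chemokine of platelets and some monocytes (6.95 and 116 CPM, -4.06, and -4.35 matched), *Tarm1* (-3.50, and -2.34 matched), *Cd244* (-3.29, and -1.81 matched), *Mmp8* (-3.08), *Gm9733*, *Ifitm6*, *F10*, *Pilrb1*, *Thbs1*, *Slpi*, *Vcan* and *Itgal*.

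Antigen presentation genes were lower against all non-cycling cells and divided against the depth-matched cells. Of 9 MHC class II genes 8 were compared, and 5 were lower (median -1.14), while with depth matched 0 of 8 were higher, 1 was lower and 4 lay above 0 (median 0.30). Beside each list of this paragraph, 13.7% of all genes were higher and 4.46% lower, and 9.68% and 2.72% with depth matched. *H2-Aa*, a chain of the class II molecule, stood at 443 and 865 CPM (-0.97), and at 0.82 (0.68 to 0.96) with depth matched. *Cd74*, its invariant chain, went from -0.92 to 0.71. *Ctss*, the protease that trims the invariant chain, kept its direction at -1.11 and -1.05 and was the 1 gene lower in the second comparison. Of the members, 36 held any *H2-Aa* UMI and 5 of these held 54.8% of them. Of 19 inflammatory cytokine and chemokine genes 18 were compared, 1 was higher and 4 lower (median -0.47). *Cxcl2*, a chemoattractant of neutrophils, stood at 2509 and 4703 CPM (-0.91, and -0.34 matched). *Il6* was the gene that was higher (1.66), and 63 of its 74 UMIs came from a single member. With depth matched, 0 of 18 inflammatory genes were higher and 1 was lower (median -0.39). Growth factor receptors and signalling genes had a median of -0.58 (0 of 17 higher, 3 lower) and growth factor ligands of -0.42 (2 of 9 higher, 1 lower). *Pdgfb*, the ligand of the platelet-derived growth factor receptors, stood at 19.2 against 7.14 CPM (1.43). With depth matched, 0 of 6 growth factor ligands were higher and 1 was lower (median -0.41). The 12 immediate early genes, which respond to digestion of tissue among other stimuli, had a median of -0.39 with 0 past the fold.

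*Acp5* (chromosome 9, 22126727 to 22135711), the tartrate-resistant acid phosphatase of osteoclasts and some macrophages, was given as a marker of these cells, but few of them carried it at a high level. It stood at 228 and 94.6 CPM (1.27, 1.14 to 1.39) and at -0.60 (-0.74 to -0.45) against the depth-matched cells, 47 of the 108 members held a UMI of it, and 5 members held 83.4% of its UMIs. In thinned cells a UMI was found in 21.3% of members (14.0 to 30.2%), 17.0% of non-cycling and 2.81% of stromal cells. A set of 7 members held at least 10 *Mmp9*, *Ctsk* and *Acp5* UMIs per 10000, and their *Acp5* counts were 205, 170, 86, 73, 40, 11 and 6. Without these and the 37 non-cycling cells past the same limit, *Acp5* stood at 35.8 and 46.8 CPM (-0.39, -0.70 to -0.09). The cells left out were picked by these same genes, so the lower ratios that follow are fixed in part by that choice and show only how the UMIs were spread over cells.

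Of 12 osteoclast genes, 8 were compared and 7 were higher with all cells (median 1.64), beside 13.7% of all genes. With depth matched 0 of 6 were higher (0.01), beside 9.68% of all genes. Among C1q-low cells 8 of 8 were higher and among C1q-high cells 1 of 6, where 19.5% and 8.26% of all genes compared were higher. The osteoclast protease gene *Ctsk* went from 2.09 to -0.81 without the high cells, and *Ocstamp*, of osteoclast fusion, from 1.13 to -1.94. *Mmp9*, a gelatinase, kept a ratio of 1.13 (from 2.67) and *Atp6v0d2*, a proton pump subunit, of 1.72 (from 2.01). *Nfatc1*, the transcription factor of osteoclast formation, stood at 0.83 (from 1.10), and *Tnfrsf11a*, which encodes the RANKL receptor RANK, at 0.30 (from 0.50). With only the high members left out and all non-cycling cells kept, *Mmp9* stood at 0.29 and *Atp6v0d2* at 0.66. *Acp5* and *Ctsk* then stood at -1.40 and -3.13. Against depth-matched cells *Mmp9* stood at 0.92. *Acp5* thus marked a few of the cycling cells rather than the group.

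**Figure D4:**
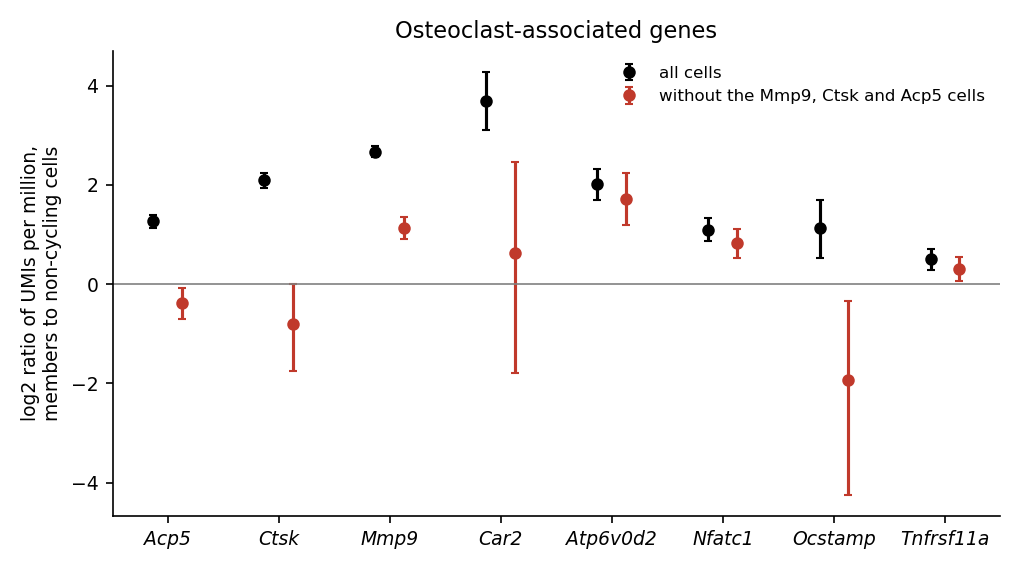
Log2 ratio of CPM, cycling to non-cycling cells, for 8 osteoclast genes with all cells (black) and without the cells high in *Mmp9*, *Ctsk* and *Acp5* (red). Those cells were left out of both groups, and bars are exact 95% intervals of counting error. *Acp5*, *Ctsk* and *Ocstamp* lie above 0 with all cells and below it without these cells, while *Mmp9* and *Atp6v0d2* stay above 1.

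Several other genes rested on few members. Keratinocyte markers summed to 2014 CPM in cycling and 53.3 CPM in non-cycling cells, all 6 were detected, and *Krt14*, a keratin of the basal skin layer, was the most abundant (1386 CPM). A set of 5 members held 98.8% of the *Krt14* and *Krt5* UMIs, which were 1.56 to 2.19% of the UMIs of each such cell, and 2 of the 5 were among the cells with the highest doublet scores. These cells also held 1 to 10 *Csf1r* UMIs. Neutrophil markers summed to 903 and 347 CPM, led by *S100a8* (477 CPM), with *Ltf* at 0, and 3 members held 91.0% of the *S100a8* and *S100a9* UMIs. Of these 3 cells, 2 held all *Elane* and *Ctsg* UMIs, genes of the granules of marrow progenitors, and 80.2% of *Ly6c2*, the antigen of inflammatory monocytes, and the other held none of them. A further 4 members held at least 1 UMI per 10000 of the dendritic cell genes *Flt3*, *Cd209a* and *Zbtb46*, 21 UMIs in all, and in the shallower of these cells that is 1 or 2 UMIs. With the *Acp5* set, which shared 1 cell with the *S100a8* set, these made 18 members, with 90 in none. The median C1q count was 3, 3, 0 and 2.5 UMIs in the *Krt14*, *Acp5*, *S100a8* and dendritic gene sets. It was 100.5 over all members, so these sets bear mostly on the C1q-low range.

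Fibroblast markers summed to 220 and 127 CPM, led by *Sparc* (73.5 CPM), and 106 of the 142 *Col1a1* UMIs came from a single member. The part of these transcripts in the other results was not tested. Endothelial markers summed to 12.9 and 13.8 CPM and mural cell markers to 38.4 and 30.1 CPM. B cell markers summed to 7.95 and 13.3 CPM with *Pax5* and *Ms4a1* at 0. T cell, NK cell and erythroid markers summed to 0.331, 0 and 0.662 CPM, with 4 of 5, 6 of 6 and 6 of 7 markers at 0. Basophil and mast cell markers summed to 0.331 CPM with 6 of 7 at 0, against 57.3 CPM in non-cycling cells. Dendritic cell markers summed to 27.8 and 35.0 CPM, Schwann cell markers to 21.2 and 32.6 CPM and skeletal muscle markers to 13.9 and 8.91 CPM. With the 18 members and the non-cycling cells past the same limits left out, 10.9% of 8591 genes were higher and 4.66% lower. The median of the G2 and mitosis genes was then 4.72, of the nucleolus genes 1.27, of the interferon genes -1.22 and of the monocyte genes -2.90. The macrophage, resident and osteoclast medians were then -0.20, 0.58 and 0.73, against -0.47, 0.20 and 1.64 with all cells. Of 6 osteoclast genes compared, 2 were then higher. *Apoe* stood at -1.63 and *Ccnd1* at 2.57. Among C1q-low cells 957 genes were then higher, against 1270 with all cells, and among C1q-high cells 593, against 655.

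Cells that met the same rule were far more frequent in bone marrow and rare in blood. In the marrow 191 of 352 did (54.3%, 48.9 to 59.6%, or 46.0% in thinned cells), and in the blood 5 of 437 (1.14%, 0.373 to 2.65%). The marrow cells were a different population by their genes. *Prtn3* and *Elane*, proteases of granulocyte and monocyte progenitors, stood at 3622 and 1553 CPM in the marrow and at 101 and 22.5 CPM in the tendon. In the tendon, 91.8% of the *Prtn3* UMIs and all *Elane* UMIs were in the 3 members high in *S100a8* and *S100a9*. *Ly6c2* stood at 2102 CPM in marrow, 203 in blood and 40.1 in tendon, with all 42 blood UMIs in 1 of the 5 cells. *C1qa* was at 0 in the marrow cells, which allows up to 0.350 CPM, against 1517 CPM (1876 in the 5 blood cells). *Adgre1*, the F4/80 antigen, stood at 20.1 CPM and *Apoe* at 26.2 CPM in the marrow cells, levels for which no background of free RNA was measured.

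Between the 2 sites, 12% of 7893 genes were higher and 10.7% lower in the tendon. Of 17 macrophage genes compared 17 were higher in the tendon (median 4.50), and of 12 monocyte genes 10 were lower (-2.54). Of the D cyclins, *Ccnd1* stood at 6.88 CPM in marrow and 187 in tendon, *Ccnd3* at 228 and 49.7 CPM, and *Ccnd2* at 38.6 and 16.6 CPM. In blood *Ccnd1* stood at 314 CPM, with UMIs of 31, 32, 0, 2 and 0 in the 5 cells, *Ccnd3* at 183 CPM and *Ccnd2* at 9.65 CPM. The S phase and G2 and mitosis genes stood lower in the tendon by a smaller step, with 6 of 51 past the fold, 10 above 0 and a median of -0.34, and with 9 of 58 past the fold, 2 above 0 and a median of -0.61. Of 43 clustered histone genes compared, 41 were lower in the tendon (median -2.87). As with the cell cycle lists, the minimum of 100 UMIs admits macrophage genes here mostly through the tendon and histone genes through the marrow (43 of 69 compared, against 13 of 69 within the tendon), so these counts are in part set by the filter. *Mki67* and *Top2a*, the genes of the rule, were also lower, at 468 and 478 CPM in the tendon against 760 and 763 CPM. The 5 blood cells were mixed, with 738, 285, 121, 66 and 0 C1q UMIs, and the non-cycling blood cells held 401 CPM of *C1qa*, in 40 of 399 cells.

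**Figure D5:**
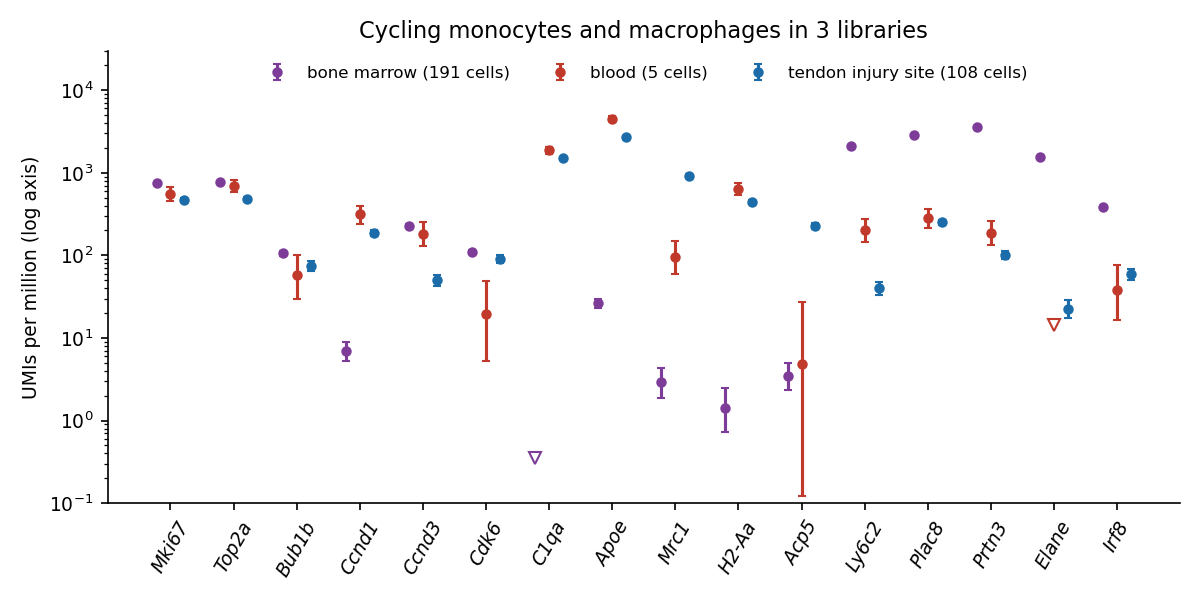
CPM (vertical, log axis) of 16 genes in cells meeting the rule in bone marrow (191 cells), blood (5) and the tendon injury site (108), with exact Poisson 95% intervals; open triangles mark the limit of 3 counts for a gene at 0. *Ccnd1*, *C1qa*, *Apoe* and *Acp5* are higher in tendon than in marrow, while *Ly6c2*, *Plac8*, *Prtn3*, *Elane*, *Irf8* and *Ccnd3* are lower.

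In the same tendon library, stromal cells (at least 1 *Pdgfra* and no *Ptprc* UMI) were cycling more often by the same limit, 202 of 635 (31.8%, 28.2 to 35.6%), or 19.8% (16.7 to 23.2%) in thinned cells against the 5.06% of monocytes and macrophages. These cells shared library and preparation with the cycling monocytes and macrophages. How evenly the preparation recovered each cell type was not tested. Of 8849 genes, 15.7% were higher and 17.7% lower in the cycling monocytes and macrophages. *Ccnd1* stood at 187 CPM against 75.1 in cycling stromal cells, *Cdk6* at 90.7 against 11.1 and *Bub1b* at 74.5 against 32.7. *Cdk4*, *Cdc20* and *Npm1* went the other way, at 158 against 227, 75.8 against 130 and 1674 against 2816 CPM. Over the lists, 4 of 51 S phase genes were higher and 1 lower (median 0.41), and 5 of 57 G2 and mitosis genes were higher and 0 lower (median 0.16). Both groups were chosen by the same limit on *Mki67* and *Top2a*, so like levels of these lists follow in part from the choice. The cycling stromal cells were deeper, with a median of 58769.5 UMIs against 24929 in the cycling monocytes and macrophages. The levels were not matched on depth, and the part of depth in these differences was not tested.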

How the data were processed

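The day 3 libraries of tendon, marrow and blood were used. The deposited files hold raw UMI counts for each gene in each cell, which the authors made with Cell Ranger (version 5.0.1 in the matrix header). The submitters' processing notes name mm10. Members, gene lists and comparisons were chosen with earlier results of these data known. Cells needed at least 200 genes and at most 20% mitochondrial UMIs. The deposited counts were summed over cells and given as CPM with exact Poisson intervals, shares with Clopper-Pearson intervals, and log2 ratios with the exact binomial interval of the split of 2 sums (95%). A count of 0 allows 3 counts. No test was made, with 1 library per tissue. Doublets were scored with Scrublet in scanpy 1.11.5. Its automatic threshold marked 6 of 4978 tendon cells and was not used, no cell was removed, and leaving out the top 4% was an alternative. Matched cells were the non-cycling cells nearest in total UMIs, 1 per member. The genes named were those given as markers, the 12 with the highest and lowest ratios within and outside the cell cycle lists (UMI in at least 10% of cells), and in each list the 4 most abundant and the extremes. Others named were chosen after their values were seen. The interval calculation was checked on simulated sums drawn without variation between cells, so the check does not cover UMIs held by few cells. Python 3.11.15, numpy 2.4.6, scipy 1.17.1 and pandas 2.3.3 were used. Promoters and gene positions came from RefSeq and GRCm38 annotation. A few genes that the naming rule covers are not reported here.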

Additional observations from a re-analysis of the deposited data

How the results depend on the processing

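No paired analysis was possible because each tissue had 1 library. Of the values for whole comparisons under other settings, 64 kept and 19 moved. Kept means within the interval of the main value, or within 1.5 times where it had no interval. A list median was called moved past a difference of 0.25. Of those for single genes and lists, 369 kept, 186 moved and 33 changed sign, and the cause was not tested unless the setting itself shows it. The settings that leave out cells led by other genes, thin the marrow and blood cells, or take the first promoter of each gene were chosen after seeing the data.

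With at least 3 *Mki67* and *Top2a* UMIs the cycling share was 7.19%, and with the matching limit of at least 1 UMI in thinned cells it was 16.4%, 13.9% and 10.6% in resident-marked, C1q-high and C1q-low cells. *C1qa* was then at 0.14 and the glycolysis median at -0.017. With at least 10 UMIs (4 in thinned cells) these shares were 3.15%, 3.37%, 2.40% and 1.73%, the marrow share 48.6%, *Il6* -1.29, *Folr2* -0.0061 and the resident median -0.027. With 2000 UMIs kept per cell and at least 1 UMI the resident-marked, C1q-high and C1q-low shares were 12.05%, 8.43% and 5.58%. With no minimum of UMIs 2360 genes were higher, against 1225. Without the 5% deepest cells the share was 2.99% (2.99% also in C1q-low cells), 688 genes were higher, *Acp5* was at -0.25, *Il6* at -0.19, *S100a8* at -1.88, *C1qa* at 0.29 and glycolysis at -0.25. With depth matched 570 genes were higher and 160 lower, against 398. *Acp5* was then at -0.60, *Ctsk* -0.68, *Folr2* -0.56, *H2-Aa* 0.82, *Ccr2* 0.20, *Ly6c2* 0.11, *Fn1* 0.060, and the medians of cell cycle brakes at 0.050, resident genes -0.69, MHC class II 0.30 and glycolysis -0.10. Without cells led by other genes, which were picked by some of these genes, *Acp5* was at -0.30, *Ctsk* -0.54, *Krt14* -0.68, *S100a8* -1.02, *Cd9* -0.11, *C1qa* 0.27 and glycolysis -0.22. With each cell weighted equally *C1qa* was at 0.27 and glycolysis at -0.17. Without the limit on *S100a8* and *S100a9* the marrow share was 45.7%, *S100a8* was at -2.05 and glycolysis at -0.011, and without the highest doublet scores glycolysis was at -0.023. Thinned, the marrow share was 46.0%.

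With 108 cells from 1 library, no spread between animals was measured. Genes under 100 UMIs were not compared, and the groups differed in depth.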
